A study of Mus musculus with 13 samples.

Results

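The genes described here encode the piRNA pathway and the germ granules of male germ cells. They are 33 named genes of the 25965 in the deposited expression table: PIWI proteins and their partners, enzymes that make piRNAs, Tudor domain scaffolds, chromatoid body helicases and RNA binders of germ cells. The members were taken by name, 31 by the symbol in the table and 2 by an older symbol, Henmt1 (4921515J06Rik) and Btbd18 (Gm13718). Each was followed through all 13 libraries, and 31 members passed the minimum mean level of 1 RPM (reads of a gene scaled to library size) that the tests used.

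PIWI-interacting RNAs, or piRNAs, are short RNAs of the germline that guide PIWI proteins to transposon and other transcripts. Their long precursors are unwound and cut on the outer surface of mitochondria, trimmed at the 3′ end and methylated there. Many of these proteins gather in granules without a membrane, the intermitochondrial cement of spermatocytes and the chromatoid body of round spermatids, where Tudor domain proteins hold PIWI proteins by their methylated arginines.

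The study asked what Wfdc15a, which encodes a small protein with a WAP domain, does in the testis, by Smart-seq2 RNA sequencing of testis tissue, freed of its tunica albuginea, from mice of 15 weeks. The knockout libraries were labelled Wfdc15a-/- (KO, n = 6) and the controls, pooled as the study's design text pools them, were Wfdc15a+/- (Het, n = 4) and wild type (WT, n = 3). How the allele was made and the strain of the mice are not stated in the sources used here, and the titles carry a number, 1 or 2, whose meaning is not given either (KO replicates 1 to 3 and Het replicate 1 have number 1, all others number 2). The tissue holds every cell type of the testis, so fewer cells of a type and less RNA per cell cannot be told apart.

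The libraries held 4.22 to 10.05 M reads in genes, and 1 read was worth 0.0899 to 0.222 RPM. Wfdc15a itself averaged 44.6 ± 21.8 RPM in the KO libraries and 65.5 ± 12.5 RPM in the controls (SD, n = 6 and n = 7), with 28.1 ± 7.60 RPM in KO number 1 and 61.2 ± 17.7 RPM in KO number 2 (n = 3 each). The difference over all libraries was -0.66 on the log2 scale (two-sided exact permutation p = 0.0338). The groups overlapped, so every KO library is named here by its label alone, and the p rose above 0.05 without WT replicate 1 (0.0714), Het replicate 2 (0.0649), Het replicate 4 (0.0541) and KO replicates 1, 2 or 3 (0.0619, 0.0821 and 0.0619). Markers of the germ cells and somatic cells of the testis were all read in at least 1 library.

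The summed RNA of the germ granule genes in the KO testes was close to that in the controls. Together the 33 members held 7207 ± 435 RPM in the KO libraries and 6854 ± 257 RPM in the controls (SD, n = 6 and n = 7). Of the 31 tested members 5 rose (Tdrd1, Mov10l1, Dazl, Asz1 and Fkbp6) and 1 fell (Gtsf1l) at an adjusted p below 0.05 (limma, Benjamini-Hochberg over all 16235 tested genes), and the largest of these differences was 1.43-fold, that of Asz1. Among all tested genes 24.6% passed, with 18.4% higher and 6.18% lower, against 16.1% and 3.23% of the members. These shares of members, of 5 genes and 1 gene, lay near the background, and the split changed with the scaling. Their median log2 difference was 0.20, beside 0.16 for all tested genes, and 28 of 31 were positive (90.3%, beside 67.2% of all genes). No member had all KO libraries above or all below every control, which 5.06% and 2.89% of all genes had.

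The positive shift of all genes depended on the scaling. Scaled by the median of ratios the median of all genes was 0.02, and 1711 genes were called higher and 1716 lower, beside 2994 and 1003 with the RPM values. Of the members 2 then fell and 0 rose with that scaling (21.1% of all genes called, 10.5% higher and 10.6% lower), and 3 fell and 0 rose with limma-voom (20.6%, 10.2% higher and 10.4% lower). After quantile normalization 7 members rose and 0 fell, which is 22.6% and 0% of them, beside 8.99% higher and 9.44% lower among all genes. The sign of the log2 difference turned for 11, 11 and 8 of the 31 members in those same 3 fits, and no member was called in opposite directions by any of them.

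**Figure D1:**
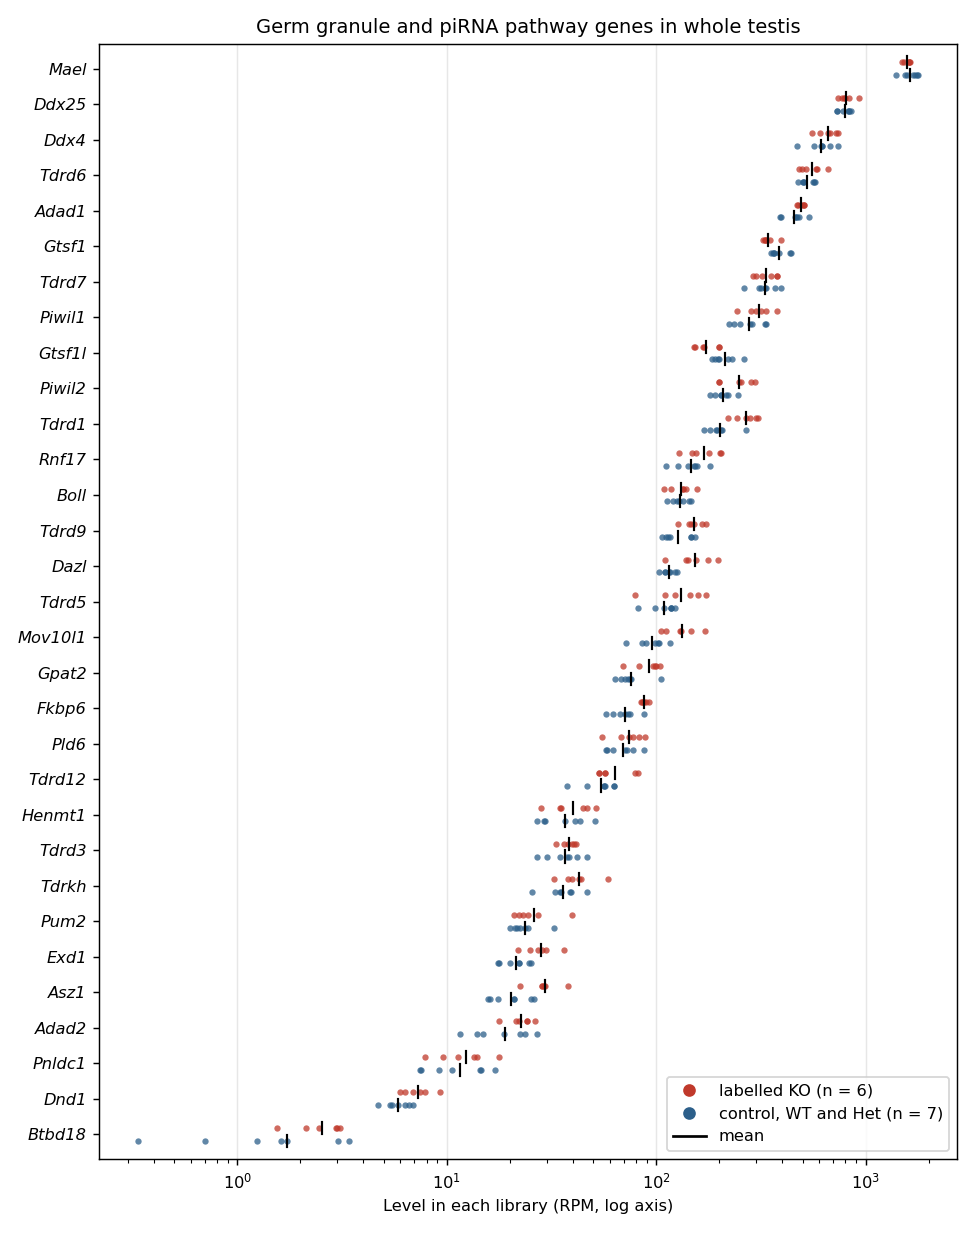
Level of each tested member in every library, in RPM on a log axis, with the KO libraries (n = 6) above the controls (n = 7) for each gene and a bar at each mean. Not scaled by gene length, the levels span from Btbd18, at a mean of 2.53 RPM in KO and 1.72 RPM in control, to Mael, at 1579 and 1636 RPM, and the 2 groups overlap for every gene.

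Per kilobase of exon, Mael stood highest, at 911 RPM per kb in the KO libraries and 944 in the controls. Gtsf1 (247 in KO, 278 in control), Gtsf1l (211 and 258) and Ddx4 (219 and 203) came next by their control means. By these lengths Gtsf1l stood below Ddx4 in the KO means and above it in the control means. The 822 exon bases used for Gtsf1l are more than its span in the deposited table (chr2:163087038-163087783). A shorter length would raise its values per kb, so its place beside Gtsf1 and Ddx4 is not settled. At the low end were Btbd18 (0.718 and 0.489), Nanos1 (0.281 and 0.200) and Piwil4 (0.160 and 0.143 RPM per kb). The spread over libraries was not the same for all members. Adad1 and Fkbp6 varied least among the KO libraries, with coefficients of variation of 3.13% and 3.15%, against 11.2% and 13.6% in the controls. Dazl varied by 20.2% in KO and 6.81% in control. These spreads were not tested against each other.

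Among the PIWI proteins and their partners 1 of 5 tested genes fell and 0 rose, with a median log2 difference of -0.05. Piwil1 (MIWI), the PIWI protein of late spermatocytes and round spermatids, had 244 to 377 RPM (median 308) in the KO libraries, against 224 to 335 RPM (median 282) in the controls. Its log2 difference was 0.16 (95% interval -0.07 to 0.38, adjusted p = 0.298). Piwil2 (MILI), which acts from fetal germ cells to round spermatids, had 199.6 to 297 RPM (median 251) in the KO libraries, against 181 to 244 RPM (median 204) in the controls. In 4 of 6 KO libraries it lay above every control, and its difference of 0.23 (SE 0.0999) had an adjusted p of 0.0919. It passed after quantile normalization (0.29, 0.0478), and without KO replicate 1 (adjusted p = 0.0410) or 2 (0.0408). Piwil4 (MIWI2), the PIWI protein of fetal germ cells that directs DNA methylation, was read at 0 to 20 reads per library, with a mean of 0.860 RPM in KO and 0.772 RPM in control, and was not tested. It overlaps Gm10706 on the other strand, and the strand of counting is not known.

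Gtsf1l (at chr2:163087038-163087783, minus strand in mm10) was the 1 member that fell with the RPM values. It is a paralog of Gtsf1, a small zinc finger protein that binds PIWI proteins and is needed to silence transposons. Gtsf1l had 152 to 199.8 RPM (median 168) in the KO libraries, against 184 to 264 RPM (median 199.8) in the controls. Of the 6 KO libraries 4 lay below every control and the other 2 within the control range. The means were 173 ± 21.3 RPM in KO and 212 ± 27.8 RPM in control (SD, n = 6 and n = 7), a log2 difference of -0.29 (SE 0.0957, limma adjusted p = 0.0326). The call was lost without WT replicate 1 (adjusted p = 0.0540), Het replicate 1 (0.0657) or 2 (0.0689), or KO replicate 2 (0.0585), 3 (0.0802) or 4 (0.0745). It was also lost after quantile normalization (-0.26, 0.0707) and within title number 2 (-0.26, 0.189), and it held with the median of ratios (-0.44, 0.00320) and with limma-voom (-0.45, 0.00352).

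Gtsf1 itself had 322 to 393 RPM (median 333) in the KO libraries, against 354 to 440.2 RPM (median 367) in the controls. In 5 of 6 KO libraries it lay below every control, with a difference of -0.17 (SE 0.0745) that did not pass the threshold (adjusted p = 0.0978). It passed with the median of ratios (-0.32, adjusted p = 0.00458) and with limma-voom (-0.34, 0.00337). Mael, a nuage protein needed for transposon silencing and for pachytene piRNAs, had 1496 to 1630.2 RPM (median 1606) in the KO libraries, against 1393 to 1786 RPM (median 1691) in the controls. All 6 KO libraries lay below the control mean but within the control range, and the difference of -0.05 (interval -0.18 to 0.09) was not called (adjusted p = 0.636) other than by limma-voom (-0.20, 0.0296).

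Of the 9 tested enzymes and mitochondrial surface factors that make piRNAs, Asz1, Mov10l1 and Fkbp6 rose and 0 fell, where 18.4% of all tested genes rose. The median difference of the 9 was 0.28 on the log2 scale. With the median of ratios and with limma-voom 0 of the 9 rose, beside 10.5% and 10.2% of all genes. After quantile normalization 1 rose, beside 8.99% of all genes. Whether the share of this role differs from that of all genes was not tested. Asz1 (at chr6:18050964-18109061, minus strand), which anchors piRNA factors to the mitochondrial membrane, had 22.5 to 38.0 RPM (median 28.8) in the KO libraries, against 15.7 to 26.0 RPM (median 20.9) in the controls. In 5 of 6 KO libraries it lay above every control, and KO replicate 5 lay within the control range. The means were 29.3 ± 4.96 RPM in KO and 20.3 ± 4.12 RPM in control (SD, n = 6 and n = 7), a log2 difference of 0.51 (SE 0.152, limma adjusted p = 0.0176). Asz1 had 115 to 271 reads in a library, so its values rest on fewer reads than those of the other members that rose.

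Mov10l1 (at chr15:88982909-89055152, plus strand), the RNA helicase that feeds precursors into piRNA production, had 105 to 170.4 RPM (median 130.1) in the KO libraries, against 72.1 to 116 RPM (median 99.0) in the controls. In 4 of 6 KO libraries it lay above every control. The means were 132 ± 23.8 RPM in KO and 95.2 ± 14.2 RPM in control, a log2 difference of 0.47 (SE 0.119, adjusted p = 0.00680). Fkbp6 (at chr5:135291704-135349991, minus strand), a co-chaperone needed for piRNA loading and meiosis, had 84.9 to 92.3 RPM (median 86.8) in the KO libraries, against 57.8 to 87.4 RPM (median 71.3) in the controls. The KO libraries lay close together at the upper end of the control range, 3 of them above every control, and WT replicate 1 was the control that reached them. Its difference was 0.32 (SE 0.0966, adjusted p = 0.0201), on means of 87.6 ± 2.76 RPM in KO and 70.6 ± 9.59 RPM in control.

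The other 6 genes of piRNA production did not pass. Exd1, an inactive nuclease homolog that serves piRNA complexes as an RNA adaptor, had 21.9 to 36.1 RPM (median 27.9) in the KO libraries, against 17.5 to 25.1 RPM (median 22.1) in the controls, with 4 of 6 KO libraries above every control (difference 0.38, adjusted p = 0.0560). It passed without Het replicate 4 (adjusted p = 0.0478) or KO replicate 4 (0.0320). Gpat2, an acyltransferase family protein of mitochondria needed for piRNA production, had 69.3 to 104 RPM (median 97.7) in the KO libraries, against 63.5 to 105 RPM (median 73.6) in the controls (difference 0.28, adjusted p = 0.0953). WT replicate 1 stood apart from the other controls for Gpat2, which passed without it (adjusted p = 0.0214) or without KO replicate 2 (0.0334). The trimming exonuclease Pnldc1 (0.10, adjusted p = 0.776), its Tudor partner Tdrkh (0.23, 0.260), the mitochondrial nuclease Pld6 (0.09, 0.613) and the 3′ end methyltransferase Henmt1 (0.13, 0.596) had log2 differences of 0.09 to 0.23. Pnldc1 was the least certain of the 4, with a 95% interval of -0.36 to 0.56. Henmt1 overlaps Gm9857 on the other strand.

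Btbd18, a nuclear protein that drives transcription of a set of pachytene piRNA loci, had 1.55 to 3.11 RPM (median 2.70) in the KO libraries, against 0.337 to 3.42 RPM (median 1.61) in the controls. It had 2 to 38 reads in a library, and the groups overlapped widely. The log2 difference of 0.47 had an interval of -0.13 to 1.06 and an adjusted p of 0.247.

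**Figure D2:**
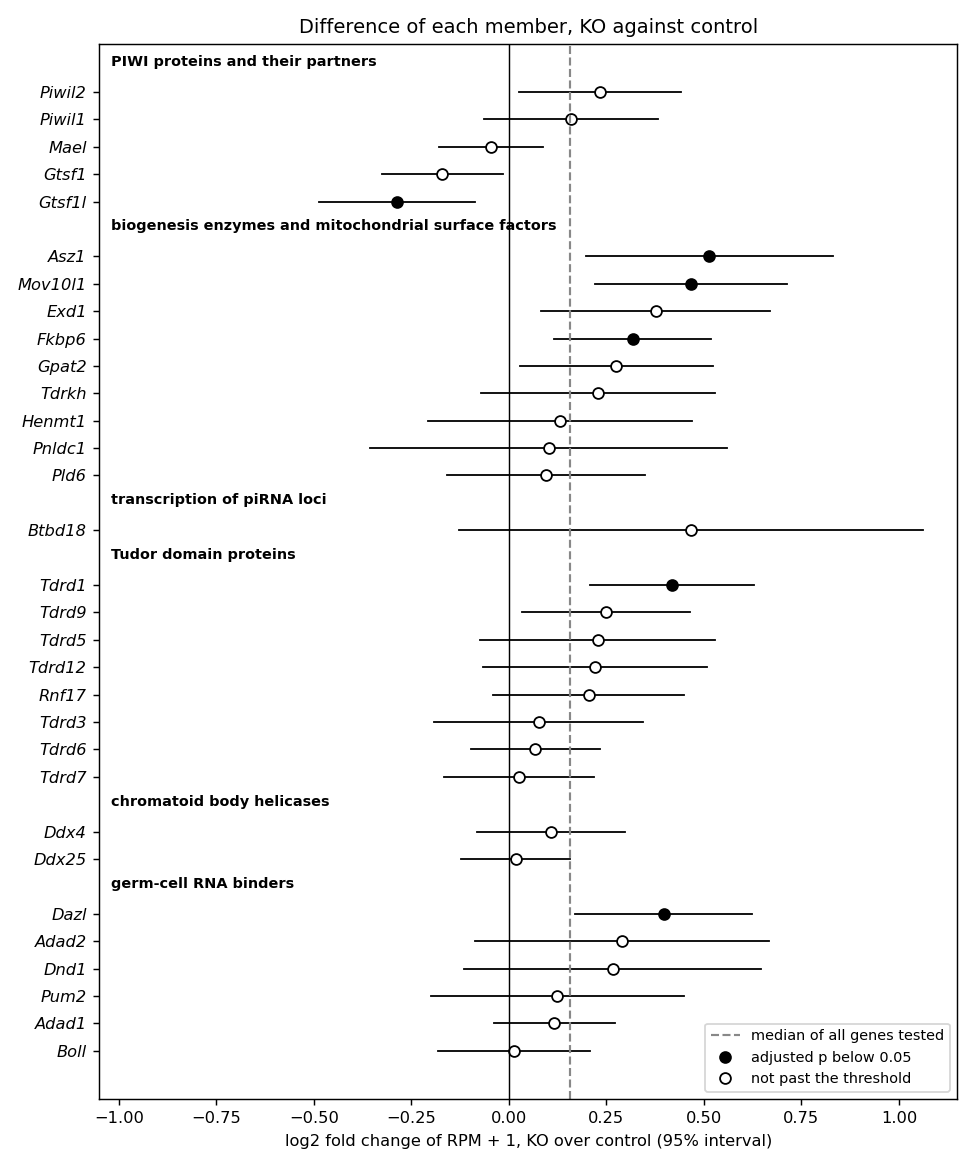
Log2 fold change of RPM + 1, KO over control, with its 95% interval for the 31 tested members by role, filled where the adjusted p is below 0.05, and a dashed line at the median of all tested genes (0.16). The 5 filled points on the right are Asz1, Mov10l1, Fkbp6, Tdrd1 and Dazl, and the filled point on the left is Gtsf1l at -0.29.

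Of the 8 Tudor domain proteins 1 rose and 0 fell, with a median difference of 0.21. Tdrd1 (at chr19:56826209-56870012, plus strand), the Tudor scaffold of the intermitochondrial cement that binds MILI, had 219.6 to 307 RPM (median 275) in the KO libraries, against 169 to 268 RPM (median 194) in the controls. In 3 of 6 KO libraries it lay above every control, all 6 lay above 6 of the 7 controls, and Het replicate 3 was the control that overlapped them. The means were 269.7 ± 33.6 RPM in KO and 202 ± 31.9 RPM in control, a log2 difference of 0.42 (SE 0.101), with the lowest adjusted p among the members (0.00480).

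Tdrd9, a helicase with a Tudor domain that silences retrotransposons, had 127 to 173 RPM (median 149) in the KO libraries, against 107 to 152 RPM (median 116) in the controls (difference 0.25, adjusted p = 0.0840). It passed without WT replicate 1 (0.0469) or KO replicate 2 (0.0494), and it overlaps BC048943 on the other strand. Tdrd5, needed for the processing of pachytene piRNA precursors, had 78.7 to 172 RPM (median 134) in the KO libraries, against 82.0 to 123 RPM (median 117) in the controls. KO replicate 1 (78.7 RPM) lay below every control and 3 other KO libraries above every control. The difference was 0.23 (adjusted p = 0.267), with an adjusted p of 0.0365 without KO replicate 1. Tdrd12, a partner of Exd1 (0.22, 0.255), and Rnf17, which limits piRNA amplification and is needed in round spermatids (0.20, 0.217), did not pass. Tdrd6, the large Tudor scaffold of the chromatoid body, had 481 to 662 RPM (median 548) in the KO libraries, against 474 to 573 RPM (median 506) in the controls. Its difference of 0.07 (interval -0.10 to 0.23, adjusted p = 0.570), that of Tdrd7, another chromatoid body scaffold (0.03, interval -0.17 to 0.22), and that of Tdrd3, a Tudor protein of many tissues (0.08, interval -0.19 to 0.34), had intervals on both sides of 0. After quantile normalization Tdrd6 was called higher (0.22, adjusted p = 0.0448).

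Neither chromatoid body helicase was called. Ddx4 (MVH), the Vasa helicase that marks the germ line, had 553 to 736 RPM (median 666) in the KO libraries, against 469 to 737 RPM (median 615) in the controls, a difference of 0.11 (interval -0.08 to 0.30, adjusted p = 0.418). Ddx25, a testis RNA helicase found in the chromatoid body, had 734 to 924 RPM (median 794) in the KO libraries, against 726 to 854 RPM (median 824) in the controls, a difference of 0.02 (interval -0.12 to 0.16, adjusted p = 0.883). The interval of Ddx25 reached no further than a log2 difference of 0.16. After quantile normalization Ddx4 was called higher (0.27, adjusted p = 0.0352), and with the median of ratios both differences were below 0.

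Of the 6 tested RNA binders of germ cells 1 rose and 0 fell, with a median difference of 0.20. Dazl (at chr17:50279394-50293599, minus strand), which promotes translation in spermatogonia and spermatocytes, had 109.7 to 198 RPM (median 148) in the KO libraries, against 103 to 125 RPM (median 115) in the controls. In 5 of 6 KO libraries it lay above every control, and KO replicate 6 (109.7 RPM) lay within the control range. The means were 153 ± 30.9 RPM in KO and 115 ± 7.80 RPM in control, a log2 difference of 0.40 (SE 0.11, adjusted p = 0.0115). Boll, the relative of Dazl that acts in spermatids, had 108 to 156 RPM (median 134) in the KO libraries, against 112 to 146 RPM (median 128) in the controls, with a difference of 0.01 (interval -0.18 to 0.21). Whether Dazl and Boll differed from each other was not tested.

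Adad1, a nuclear RNA binder of spermatids with an adenosine deaminase domain, had 472 to 509 RPM (median 497) in the KO libraries, against 388 to 537 RPM (median 466) in the controls (0.12, adjusted p = 0.268), and it overlaps Il2 on the other strand. The KO libraries lay within the control range, and after quantile normalization Adad1 was called higher (0.25, adjusted p = 0.0132). Its relative Adad2, which forms granules with Rnf17 (0.29, 0.256), the translational repressor Pum2 (0.12, 0.602) and Dnd1, which primordial germ cells need to survive (0.27, 0.306), did not pass either. For Dnd1, 4 of 6 KO libraries lay above every control, at 28 to 65 reads in a library, and it overlaps Wdr55 on the other strand. Nanos1, a partner of Pumilio proteins, was read at 0 to 15 reads in a library and was not tested.

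The 5 rises kept their call in each of the 13 fits that left out 1 library. With the median of ratios all 5 kept their positive sign and none passed (adjusted p = 0.0652 to 0.240), nor did any with limma-voom (0.0638 to 0.279). Tdrd1, Mov10l1 and Dazl passed after quantile normalization (log2 differences of 0.48, 0.44 and 0.39), where Asz1 (0.27, adjusted p = 0.245) and Fkbp6 (0.22, 0.115) did not. Relative to the median of all genes the RPM differences of the 5 were 0.16 (Fkbp6) to 0.36 (Asz1), and that of Gtsf1l was -0.44. Against the 3 WT libraries alone Mov10l1 was the 1 member called (0.67, adjusted p = 0.00466), where 9.39% of all genes were called (6.05% higher, 3.34% lower). Against the 4 Het libraries Tdrd1, Fkbp6, Dazl and Gtsf1l were called, beside 22.1% of all genes (16.9% higher, 5.15% lower). Within title number 2 alone 3 members rose and 0 fell, beside 9.33% of all genes (5.36% higher, 3.97% lower). With title number as a term Tdrd1, Mov10l1, Dazl, Fkbp6 and Gtsf1l kept their calls and Asz1 did not (0.40, adjusted p = 0.0701). In that fit Piwil2 (0.32, 0.0215), Gpat2 (0.35, 0.0453), Tdrkh (0.39, 0.0390) and Tdrd9 (0.33, 0.0312) were called higher too, beside 21.6% of all genes called (15.7% higher, 5.89% lower). Over all tested genes, the deviations of Het replicate 1 from its group mean correlated at 0.11 to 0.13 with those of the KO libraries of its own title number and at -0.13 to -0.10 with those of number 2 (genes are not independent replicates).

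**Figure D3:**
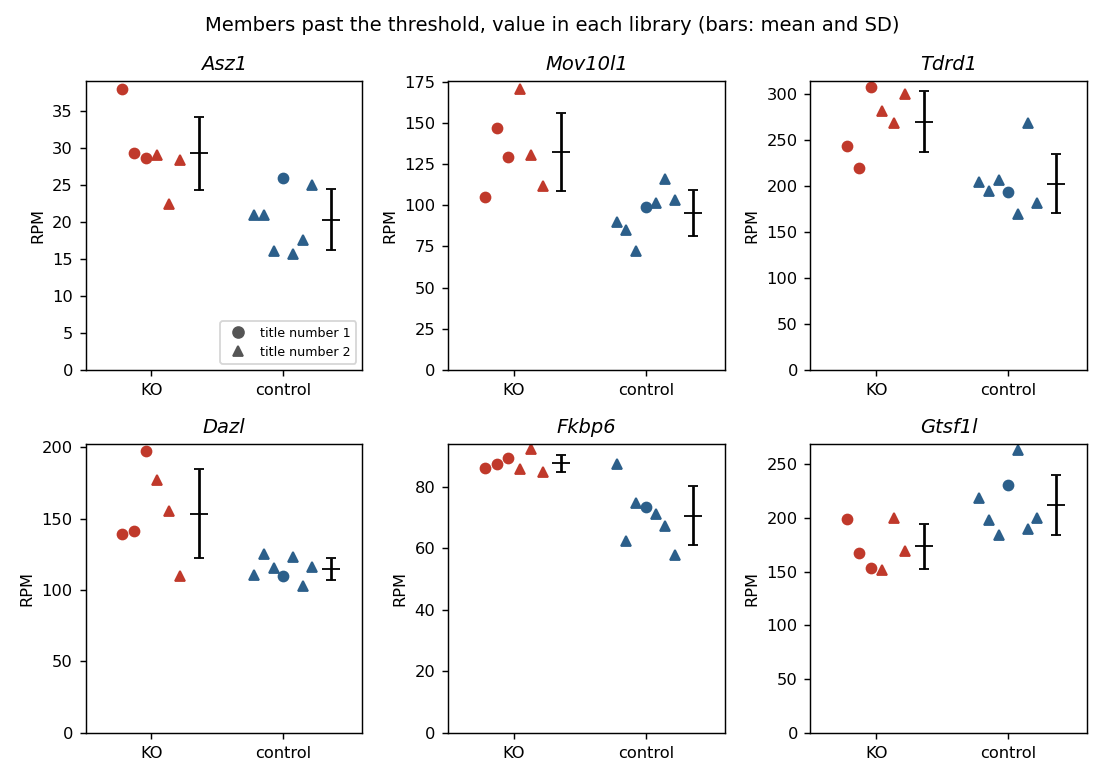
Level in RPM of the 6 called members in each library, KO left of control, with circles for title number 1, triangles for title number 2 and a bar for the mean and SD (n = 6 KO, n = 7 control). Tdrd1 in the KO libraries runs from 219.6 to 307 RPM, with 1 control (Het replicate 3) inside that range, and Gtsf1l is the 1 gene of the 6 with the lower mean in KO.

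Upstream sequences of the 6 called genes are printed because these are the members called with the RPM values. They are RefSeq sequences of GRCm38.p6, 250 bases before the annotated start of each gene, 5′ to 3′ on the strand of the gene. Positions are chr19:56825959-56826208 (plus strand) for Tdrd1, chr15:88982744-88982908 (plus strand) for Mov10l1, chr17:50293621-50293870 (minus strand) for Dazl, chr6:18109062-18109311 (minus strand) for Asz1, chr5:135350045-135350294 (minus strand) for Fkbp6 and chr2:163089602-163089851 (minus strand) for Gtsf1l. Tdrd1 has 3 annotated starts and Fkbp6 has 2, of which 1 each is shown, and for Mov10l1 the last 85 bases, which lie within the gene of the table, are left out. The RefSeq start of Gtsf1l lies 1818 bases upstream of the 5′ end that the table gives the gene, so its window does not adjoin the measured gene. Capitals mark matches to the MYB motif or the cyclic AMP response element motif described after them.
Tdrd1: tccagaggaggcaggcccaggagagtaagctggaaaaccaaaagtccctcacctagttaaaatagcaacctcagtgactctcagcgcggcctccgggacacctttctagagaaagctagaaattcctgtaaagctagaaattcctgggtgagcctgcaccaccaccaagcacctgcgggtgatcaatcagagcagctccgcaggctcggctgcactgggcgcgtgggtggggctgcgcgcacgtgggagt
Mov10l1: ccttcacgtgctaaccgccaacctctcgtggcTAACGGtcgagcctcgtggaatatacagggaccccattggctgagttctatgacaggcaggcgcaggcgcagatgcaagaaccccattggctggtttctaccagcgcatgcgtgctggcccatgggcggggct
Dazl: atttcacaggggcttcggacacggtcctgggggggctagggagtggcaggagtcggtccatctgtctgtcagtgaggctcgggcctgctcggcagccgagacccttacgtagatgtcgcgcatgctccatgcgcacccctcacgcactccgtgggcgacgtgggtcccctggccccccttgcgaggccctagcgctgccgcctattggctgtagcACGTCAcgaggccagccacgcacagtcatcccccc
Asz1: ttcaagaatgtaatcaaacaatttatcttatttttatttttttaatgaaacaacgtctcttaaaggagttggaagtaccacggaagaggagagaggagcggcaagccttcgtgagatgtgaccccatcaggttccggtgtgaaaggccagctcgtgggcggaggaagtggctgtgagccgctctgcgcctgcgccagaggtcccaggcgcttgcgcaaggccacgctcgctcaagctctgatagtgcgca
Fkbp6: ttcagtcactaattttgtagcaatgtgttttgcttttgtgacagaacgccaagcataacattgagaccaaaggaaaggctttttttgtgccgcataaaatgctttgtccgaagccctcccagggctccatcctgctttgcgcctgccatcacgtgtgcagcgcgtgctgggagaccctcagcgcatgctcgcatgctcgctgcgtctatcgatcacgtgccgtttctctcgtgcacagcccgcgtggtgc
Gtsf1l: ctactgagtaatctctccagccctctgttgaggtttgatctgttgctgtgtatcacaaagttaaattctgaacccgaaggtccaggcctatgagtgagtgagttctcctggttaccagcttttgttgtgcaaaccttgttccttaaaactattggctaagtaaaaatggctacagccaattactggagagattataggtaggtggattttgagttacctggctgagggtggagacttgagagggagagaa

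MYB motifs were taken as CAACTG or as CAACGG, and in the form that opens with T as TAACTG or as TAACGG, on either strand. They were sought because the MYB family factor Mybl1 drives pachytene piRNA loci and several piRNA factor genes in mouse spermatocytes. CAACTG is also a form of the E-box CANNTG. Of the 27 members with a window 10 held a match (37.0%), beside 26.3% of 27025 genes with a window. A gene was counted if any of its windows held a match, and the members had more windows per gene. By window the shares were 31.6% of the 38 windows of members and 23.7% of all 32851 windows. Among the 5 members that rose 2 held a match, Mov10l1 (TAACGG, 218 bases before its start) and Fkbp6, whose match lies in the window of its other start, which is not printed. The full cyclic AMP response element TGACGTCA was in 0 of 27 members and in 1.77% of all genes. Its shorter form TGACGT, which the full element contains, was in 3 of 27 (11.1%) and in 7.29% of all. By window these shares were 7.89% and 6.47%. In Dazl the shorter form lay on the other strand (ACGTCA) 35 bases before the start. A match is a run of letters and was not tested for binding.

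Both title numbers of KO libraries were set against the same 7 controls. KO number 1 had 3 members higher and 0 lower (23.1% of all tested genes were called, 17.4% higher and 5.78% lower), with a median member difference of 0.09, beside 0.15 for all genes. KO number 2 had 4 higher and 0 lower (13.2% of all genes, 8.48% higher and 4.69% lower), with a median of 0.26, beside 0.17. Mov10l1 was called in both, at 0.42 (adjusted p = 0.0281) in number 1 and 0.52 (0.0126) in number 2. Asz1 (0.64, 0.0187) and Dazl (0.46, 0.0208) were called in number 1, where number 2 gave 0.39 (0.182) and 0.34 (0.111). Piwil2 (0.42, 0.0114), Tdrd1 (0.49, 0.0119) and Tdrd9 (0.37, 0.0478) were called in number 2, where number 1 gave 0.05 (0.778), 0.34 (0.0550) and 0.13 (0.453). The count was 1 without KO replicate 3 for number 1, and 1 without KO replicate 4 and 2 without KO replicate 5 for number 2. These fits had fewer KO libraries of that number, and the shares of all genes called in them are not set beside the counts. Whether the count of members moved more than that of all genes was not tested. With the median of ratios 0 members rose in either, and those called were lower.

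Compared directly, KO number 1 and KO number 2 differed at 0 of 31 members by limma, beside 0.345% of all genes. Piwil2 was the nearest to the threshold. It had 200.2, 199.6 and 248 RPM in KO number 1 and 297, 284 and 254 RPM in KO number 2, a log2 difference of -0.37 (SE 0.125, adjusted p = 0.218). Tdrd6 had 496, 481 and 517 RPM in KO number 1 and 579, 586 and 662 RPM in KO number 2 (-0.29, adjusted p = 0.229). Tdrd7 had 288, 301 and 321 RPM in KO number 1 and 353, 375 and 377 RPM in KO number 2 (-0.28, 0.355). For 6 of 31 members the 3 libraries of number 1 all lay below the 3 of number 2. They were Piwil2, Tdrd6, Tdrd7, Tdrd9, Tdrkh and Adad2, a larger share than the 7.45% of all genes. For 0 members they all lay above, beside 9.79% of all genes. Whether these shares differ from those of all genes was not tested. Within title number 2 alone (KO n = 3, control n = 6) Piwil2 (0.41, 0.0228), Mov10l1 (0.53, 0.0380) and Tdrd1 (0.49, 0.0202) were called, and Asz1 (0.45, 0.152), Dazl (0.33, 0.137) and Fkbp6 (0.33, 0.134) were not. Number 1 has only 1 control, so it gave no value of its own.

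**Figure D4:**
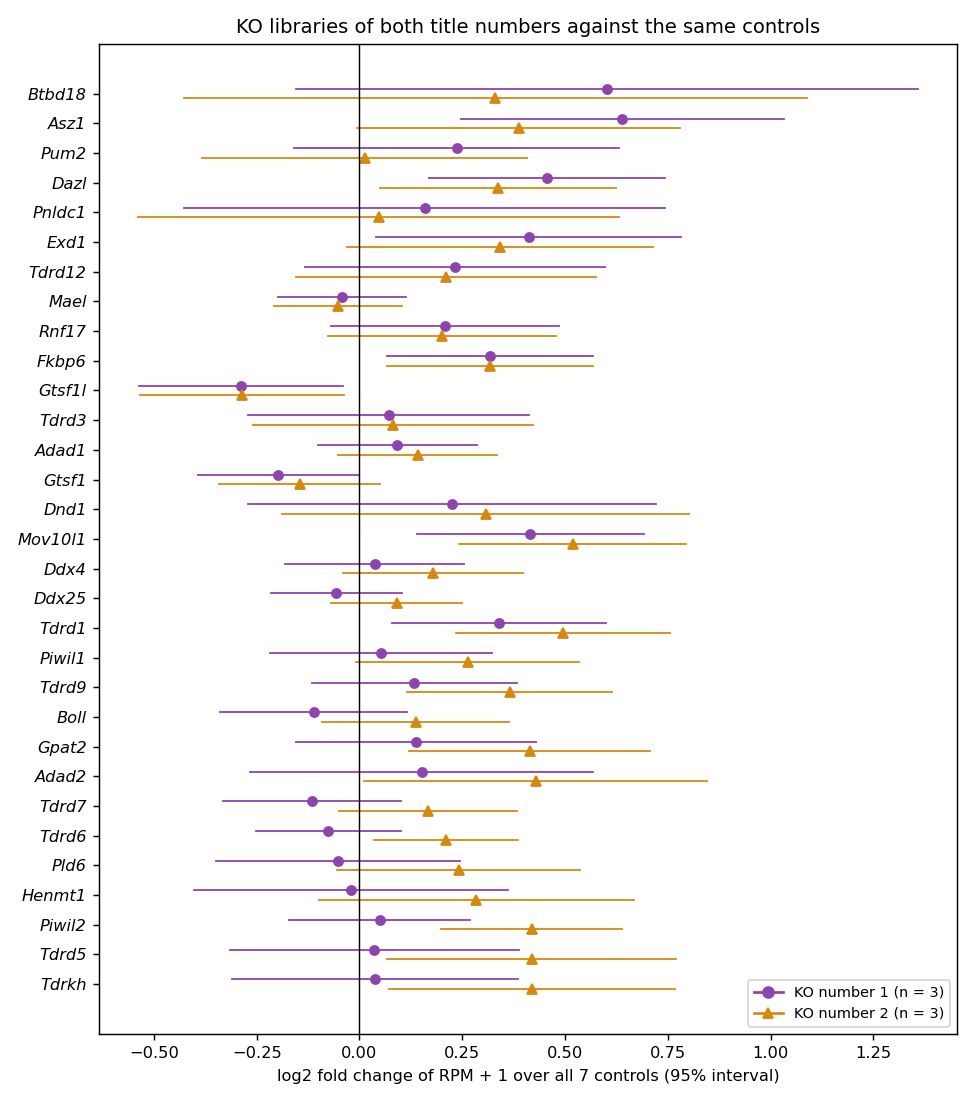
Log2 fold change of RPM + 1 over the 7 shared controls with its 95% interval for each tested member, KO number 1 (circles, n = 3) above KO number 2 (triangles, n = 3), ordered by the difference between them. Asz1 is at 0.64 and 0.39, Mov10l1 at 0.42 and 0.52, and Piwil2, near the foot, at 0.05 and 0.42.

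Het and WT testes, pooled as controls, differed at 0 of 31 members by limma (0% of all genes), and the count was also 0 with the median of ratios and after quantile normalization. Mov10l1, Rnf17 and Adad2 had the lowest p of the members, and none came near the threshold once adjusted. Mov10l1 had 99.0, 101, 116 and 103 RPM in Het and 89.8, 85.3 and 72.1 RPM in WT, a difference of 0.35 (adjusted p = 0.749). All 4 Het libraries lay above the 3 WT libraries for Mov10l1, and also for Rnf17 (151 to 180.2 RPM in Het, 112 to 142 RPM in WT). The share of all genes separated in this way was not counted. Rnf17 gave 0.34 (adjusted p = 0.765) and Adad2 -0.51 (0.775).

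Genes of the same pathway outside the members moved in both directions. Of 48 tested genes in 5 lists 5 rose and 4 fell, with a median log2 difference of 0.15. The rises were a smaller share than the 18.4% of all genes, and the share of falls lay near the 6.18% of all genes. The lists of 2 transcription factors of piRNA loci and of 6 genes for piRNA-directed DNA methylation had 0 called genes. Mybl1 averaged 10.4 ± 2.08 RPM in the KO libraries and 9.12 ± 2.42 RPM in the controls (0.19, adjusted p = 0.540). Tcfl5 averaged 54.9 ± 6.57 RPM in the KO libraries and 64.2 ± 7.39 RPM in the controls (-0.22, 0.139), and was called lower with the median of ratios (-0.37, 0.0166), with limma-voom (-0.40, 0.0125) and after quantile normalization (-0.36, 0.0231).

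Among 11 other Tudor and germ granule proteins 2 rose and 2 fell. Akap1, a mitochondrial anchor protein with a Tudor domain, fell and averaged 476 ± 59.6 RPM in the KO libraries and 762 ± 87.7 RPM in the controls (-0.68, adjusted p = 1.75e-05). Snd1, a Tudor nuclease of many tissues, rose and averaged 52.2 ± 8.69 RPM in the KO libraries and 28.9 ± 6.88 RPM in the controls (0.85, 3.90e-04). Kif17, a kinesin found with the chromatoid body, fell and averaged 69.9 ± 9.48 RPM in the KO libraries and 102 ± 14.7 RPM in the controls (-0.54, 0.00144). These 3 differences were each larger than any among the members, and they kept their calls with the median of ratios, limma-voom and quantile normalization. Akap1, Snd1 and Kif17 also passed in each of the 13 fits that left out 1 library, and within title number 2 they were the 3 genes of these lists that passed. Stk31, a Tudor domain kinase homolog of germ cells, rose by 0.34 (0.0279), a call lost with each of those 3 scalings and without WT replicate 1 (0.0580) or 2 (0.0592) or KO replicate 1 (0.0630), 3 (0.0699) or 4 (0.0622).

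Of 14 RNA decay and miRNA pathway genes Smg1, a kinase of nonsense-mediated decay, rose (0.36, 0.0205). Of 15 other RNA binders Celf1 (0.46, 0.00839) and Msi1 (0.62, 0.0154) rose, and Ybx2, which stores mRNA in spermatids (-0.35, 0.0318), and Papolb, the testis poly(A) polymerase (-0.46, 0.0431), fell. The rises of Smg1, Celf1 and Msi1 lost their call with each of the 3 other scalings, and the fall of Papolb after quantile normalization. Ybx3, another Y-box RNA binder, averaged 56.8 ± 3.17 RPM in the KO libraries and 65.9 ± 10.4 RPM in the controls and was not called (-0.20, 0.182), but was called lower with the median of ratios (-0.35, 0.0279), limma-voom (-0.37, 0.0279) and quantile normalization (-0.33, 0.0415). Smg1 was also lost without KO replicate 5 (adjusted p = 0.0530). Ybx2 was lost without WT replicate 1 (0.0701), Het replicate 2 (0.0697) or 4 (0.05005), or KO replicate 3 (0.0801) or 5 (0.0569). Papolb was lost without WT replicate 1 (0.0505), 2 (0.0684) or 3 (0.0674), Het replicate 3 (0.0739) or 4 (0.0897), or KO replicate 1 (0.114), 2 (0.102), 3 (0.0569) or 6 (0.0917).

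Cell type markers moved with the KO label beside these genes. All 11 elongating spermatid markers fell, with a summed level of 5903 to 9339 RPM in the KO libraries and 14035 to 18495 RPM in the controls and a median log2 difference of -1.07, and all 11 fell with each of the 3 other scalings too. Prm2, the protamine of condensed sperm chromatin, averaged 2159 ± 588 RPM in KO and 5119 ± 702 RPM in control. Of 10 round spermatid markers 3 fell, or 6 with the median of ratios (sum 2176 to 2448 RPM in the KO libraries and 2519 to 2723 RPM in the controls), as did 3 of 10 pachytene and diplotene markers (sum 8932 to 9999 RPM in the KO libraries and 9383 to 10865 RPM in the controls). Of 10 early meiotic markers 0 were called (sum 508 to 634 RPM in the KO libraries and 465 to 587 RPM in the controls), 0 of 7 in undifferentiated spermatogonia (sum 35.6 to 57.8 RPM in the KO libraries and 30.04 to 71.8 RPM in the controls) and 3 of 6 rose in differentiating spermatogonia (sum 345 to 408 RPM in the KO libraries and 297 to 417 RPM in the controls).

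In the somatic lists 7 of 10 Sertoli markers rose (sum 2353 to 3735 RPM in the KO libraries and 1312 to 2191 RPM in the controls), 7 of 7 Leydig markers (sum 5620.0 to 9709 RPM in the KO libraries and 2288 to 4201 RPM in the controls) and 6 of 8 macrophage markers (sum 144 to 319 RPM in the KO libraries and 83.2 to 128 RPM in the controls). Peritubular cells had 1 of 5 higher (sum 73.1 to 145 RPM in the KO libraries and 46.8 to 116 RPM in the controls) and endothelial cells 2 of 5 (sum 26.4 to 47.8 RPM in the KO libraries and 6.61 to 32.2 RPM in the controls). Summed levels of the elongating spermatid, round spermatid, Sertoli, Leydig and macrophage lists did not overlap between KO and control. The members' sum did overlap, and ran from 6498 to 7633 RPM in KO and from 6505 to 7129.7 RPM in control. The part of these markers in the differences of the members was not tested.

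**Figure D5:**
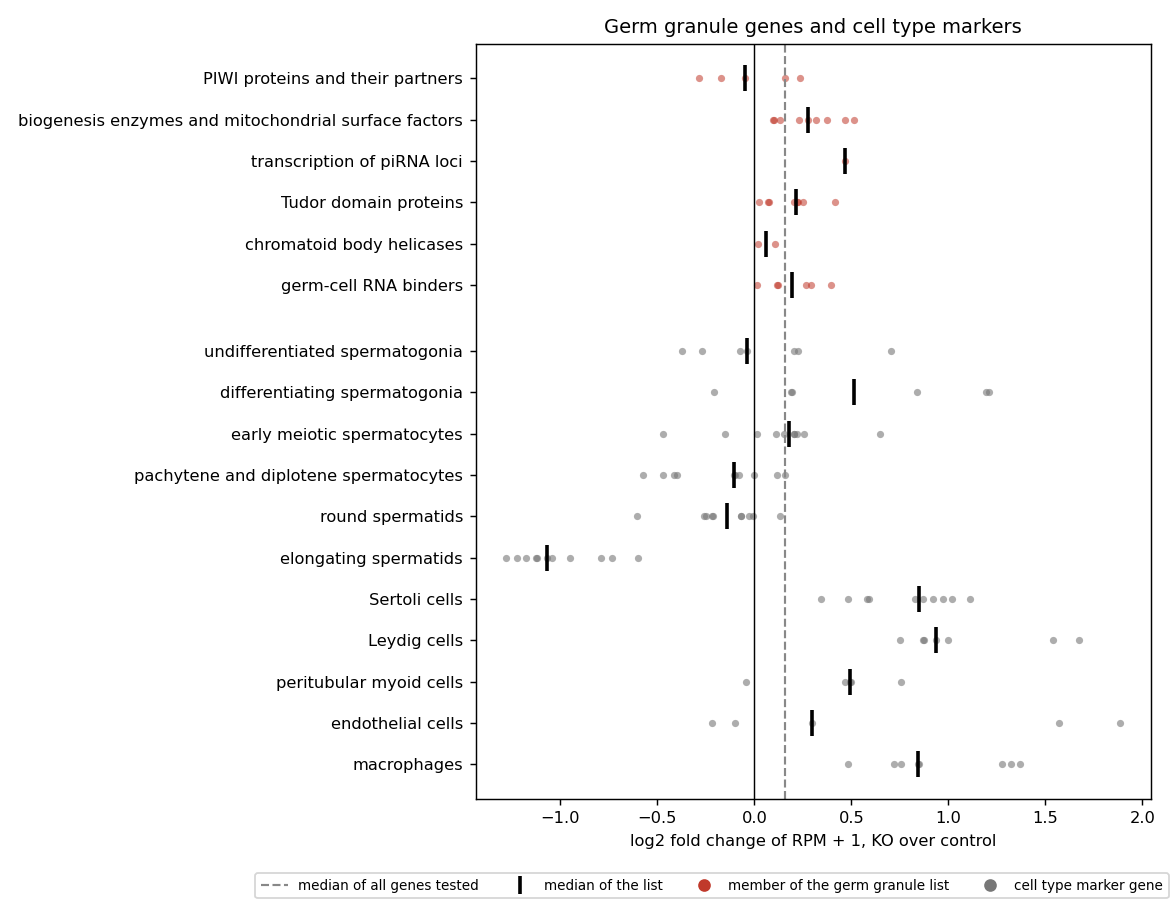
Log2 fold change of RPM + 1, KO over control, for each tested member by role (upper rows) and each cell type marker (lower rows), with a black bar at each list's median and a dashed line at the median of all tested genes. The members lie between -0.29 and 0.51, whereas every elongating spermatid marker lies below them, at -1.28 to -0.60.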

How the data were processed

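RNA of 13 whole testes was measured, and groups were set from the labels alone, with WT and Het together as control. The deposited table holds log2 RPM values that the authors made per gene and library. Per the labels' protocols, about 2 ng of RNA per library went through Smart-seq2 with 11 PCR cycles. FastQC 0.11.8, Trim Galore 0.6.6 and the build mm10 are named in the submitters' processing notes, and the aligner, the counter and the strand they counted are not stated in the sources used here. Without molecular identifiers, PCR copies count as reads.

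Whole reads were recovered from the deposited log2 values: the lowest value of a library is that of 0.9 read and was set to 0, and at least 99.96% of the others were whole reads (within 0.01). The listed genes held 90.4% to 95.0% of each library's total. With 0 reads seen, up to 3 are allowed, or 0.27 to 0.665 RPM by library, for counting error only (95% confidence).

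limma 3.58.1 in R 4.3.3 was fitted with a mean-variance trend to log2(RPM + 1) over the 16235 genes that averaged 1 RPM or more, with two-sided p-values adjusted over all of them by Benjamini and Hochberg and a threshold of 0.05. Every adjusted p is from such a fit, except where limma-voom is named. Log2 differences are of RPM + 1, which understates changes of genes near 1 RPM. Those of limma-voom are instead of its own log2 values of the recovered reads. Title numbers were compared among KO libraries in a model with WT and Het as further groups, and Het against WT in a fit of 3 genotypes. Each library is counted as 1 mouse, as the design text counts mice. The model recovered changes set in simulated counts, where rises and falls were of the same sizes. Those counts held no shift of all genes, so they cannot decide between the scalings. Alternatives were median-of-ratios and quantile scaling, limma-voom with TMM factors on the recovered reads, other minimums and pseudocounts, the deposited values as they stand, each library left out in turn, the title number and the replicate number as terms, and single control genotypes.

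Values per kb use the summed exon length of GENCODE release M21, coordinates are those of the table, and upstream sequences and older symbols are from RefSeq (GRCm38.p6), which had a window for 27 of 33 members. Of 52 other pathway genes 49 were matched. The members and all gene lists were chosen with earlier results of these data known. The rule for values named each called member, at least 1 member of each role, up to 3 called genes of each pathway list, and Mybl1 and Tcfl5. Stk31, Papolb and Ybx3 lie outside that rule and were named after their values were seen.

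Replicate numbers did not pair the samples: deviations of same-numbered libraries from their group means correlated at -0.08 to 0.13 over 10 pairs. No library was a copy of another.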

Additional observations from a re-analysis of the deposited data

Results flagged for a closer look

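A library stood far from the others of its group by Dixon's test for 3 members, all among the controls. They were Gpat2 in WT replicate 1 (105.2 RPM, where the other 6 controls held 63.5 to 76.1 RPM), Tdrd1 in Het replicate 3 (268 RPM, others 169 to 206 RPM) and Pum2 in WT replicate 2 (32.5 RPM, others 20.05 to 24.4 RPM). Of 93 groups looked at 3 had such a library, and chance gives about 1 in 20. The groups were the KO, control and Het libraries of each tested member. Het libraries are also controls, so the groups are not independent and the 2 shares compare only roughly. Without the library in question Gpat2 passed the threshold (limma adjusted p = 0.0214), Tdrd1 still passed it (8.68e-04) and Pum2 still did not (0.371).

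For Tdrd6 and Tdrd7, scaffolds of the chromatoid body, all 3 libraries of KO number 1 lay below the control mean and all 3 of KO number 2 above it. The log2 difference between KO number 1 and KO number 2 was -0.29 for Tdrd6 and -0.28 for Tdrd7, and neither passed the threshold in the direct test (limma adjusted p = 0.229 and 0.355).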

How the results depend on the processing

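Refits of single tested members kept the call or its absence in 720 cases, lost a call in 32 and gained one in 22. Called members of 31 in KO against control (6, with 5 higher and 1 lower) numbered 2 with the median of ratios (0 higher, 2 lower, beside 21.1% of all genes called), 3 with limma-voom (0 and 3, 20.6%), 9 with title number as a term (8 and 1, 21.6%), 3 within title number 2 (3 and 0, 9.33%), 1 against WT (1 and 0, 9.39%) and 4 against Het (3 and 1, 22.1%). They numbered 5 to 8 when each library was left out, with the 8 without KO replicate 2 all higher. KO number 1 against control (3 higher) gave 2 lower with the median of ratios and 1 to 4 when a library was left out. KO number 2 against control (4 higher) gave 1 lower and 1 to 6. Het against WT and KO number 1 against KO number 2 stayed at 0 in every alternative run. The genes of the other pathway lists (5 higher, 4 lower) gave 7 with the median of ratios (1 and 6), 7 after quantile normalization (2 and 5), 7 with limma-voom (1 and 6), 3 within title number 2 (1 and 2), 4 against WT (2 and 2) and 6 to 9 when a library was left out. Over all genes limma-voom called 3343, beside 3997. Of the marker lists, called round spermatid genes numbered 6 with the median of ratios and 5 with limma-voom (all lower), called early meiotic genes 1 (lower) in each of the 3 other scalings, and pachytene and diplotene genes 6 after quantile normalization (2 higher, 4 lower). The cause of these moves was not tested. When each library was left out in turn Wfdc15a was lower by log2 differences of -0.86 to -0.46 over all KO libraries, while the KO libraries of number 2 averaged 61.2 RPM, against 65.5 RPM in the controls.

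Replicate numbers did not pair the samples. With replicate number as a block 6 members were called, 5 higher and 1 lower, as without it, and Het against WT gave 0. No control shares the number of KO replicates 5 and 6, which that model therefore leaves without a contrast.

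Depth limits Piwil4, Nanos1 and Btbd18 most, since all other members had at least 28 reads in every library. Values are of RNA in whole tissue, and say nothing of protein, piRNAs or granules.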

Other observations

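Members whose KO libraries lay on both sides of the control range were Tdrd5, Pld6 and Boll. Tdrd5 had 3 KO libraries above and 1 below every control, while Pld6 and Boll had 1 above and 1 below. Pld6 had 55.1 to 87.9 RPM (median 76.1) in the KO libraries, against 57.4 to 87.5 RPM (median 70.9) in the controls. Boll had 108 to 156 RPM (median 134) in the KO libraries, against 112 to 146 RPM (median 128) in the controls. None of the 3 was called in KO against control. Nanos1 lay above every control in 2 KO libraries, at up to 2.28 RPM, against 1.51 RPM as the highest control.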
